A study of Mus musculus with 8 samples.

Results

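The 9 timing and growth genes Lin28a, Lin28b, Hmga1, Hmga2, Igf2bp1, Igf2bp2, Igf2bp3, Myc and Mycn, known from young progenitor cells, were followed among the 37018 genes of the array (accessions or probes without a symbol counted singly). All probes whose RefSeq accession, without its version, mapped to one of the 9 symbols were taken, which gave 14 of the 55681 probes on the array. Of the 9 genes, 5 had 1 probe, 3 had 2 probes and Hmga1 had 3 probes.

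The cells were nephron progenitors of the mouse kidney at embryonic day 15.5, from C57BL/6 animals, sorted by fluorescence for the EGFP carried with the Six2CreEGFP transgene. Six2 marks the cap mesenchyme, the stem-like population that builds nephrons, and its promoter drives Cre in those cells. The mutant group was Six2CreEGFP+; HDAC1&2f/f, in which Cre deletes the histone deacetylase genes Hdac1 and Hdac2, and the wildtype group was Six2CreEGFP+; HDAC1&2+/+, so both groups carried the transgene. Each group had 4 pools of sorted cells, and RNA of each pool (0.5 µg per reaction) carried the red dye Cy5 and was hybridised with Cy3-labelled RNA of wildtype pool 1 on its own two-colour array. A value is the log2 ratio of Cy5 over Cy3, so 0 means equal signal in both dyes. The wildtype 1 array held the same RNA in both dyes, and its ratios for these genes still ran from -0.18 to 0.32, so a probe can be off 0 without a difference in RNA and values are read against the other arrays of the same probe. Pools 3 and 4 of a group differed by no more than repeat labellings of the reference RNA did and were averaged into 1 joint sample. Comparisons are therefore between 3 wildtype and 3 mutant samples, whose values are given in the order pool 1, pool 2, joint sample.

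Lin28a and Lin28b are RNA-binding proteins that block maturation of the let-7 microRNAs, and let-7 in turn represses Lin28, Hmga2, the Igf2bp genes and Myc family messages. The Igf2bp proteins bind and stabilise messages such as those of Igf2 and Myc, the Hmga proteins bend AT-rich DNA in chromatin, and Myc and Mycn are transcription factors that pair with Max to drive growth genes. In the embryonic kidney these genes are known as marks of young nephron progenitors, which lose Lin28b and gain let-7 as the progenitor pool ages. The microRNAs themselves were not measured here. Mature let-7 sequences from RefSeq (GRCm38.p6) are shown because their common seed, bases 2 to 8 in capitals, is what recognises these messages; all 9 mature 5p sequences of the family held the same seed, GAGGUAG.
mmu-let-7a-5p: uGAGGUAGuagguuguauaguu
mmu-let-7g-5p: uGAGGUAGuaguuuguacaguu
mmu-miR-98-5p: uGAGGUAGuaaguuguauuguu

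Of 15 nephron progenitor markers, 14 were well above background on all 8 arrays. Detection does not single out that cell type, since all measured markers of interstitial stroma (10), endothelium (10), ureteric bud (10), early nephron (10), macrophages (9) and erythroid cells (9) were also above background on all 8 arrays, as were 8 of 10 for proximal tubule and 6 of 7 for podocytes. The summed Cy5 signal of the 15 nephron progenitor markers ran from 154234 to 194901 in the wildtype samples. In the mutant samples it ran from 118285 to 136979. Cited1, a marker of the least committed progenitors, fell from -0.09 ± 0.19 to -2.81 ± 0.13 (SD, n = 3; adjusted p = 0.00355, limma with Benjamini-Hochberg adjustment). The sums are on a linear scale, so bright genes such as Cited1 weigh most in them. The still brighter Eya1, Wt1, Six2 and Crym differed by 0.05 ± 0.10, -0.37 ± 0.13, -0.13 ± 0.14 and -0.31 ± 0.15 (SE). The part of Cited1 in the lower mutant sums was not tested. The 3 probes of the deleted gene Hdac1 read lower in the mutants by 0.30 ± 0.09, 0.40 ± 0.09 and 0.57 ± 0.14 (SE; adjusted p = 0.58, 0.376 and 0.425), and the Hdac2 probe differed by -0.13 ± 0.14 (adjusted p = 0.879). Whether these probes lie inside the deleted exons was not analysed here. Cy5 signals were well above background for 28150 to 33982 probes on 7 arrays and for 48627 on the wildtype 2 array. Pooled RNA cannot tell fewer cells of a type from less RNA per cell. All arrays sat on 1 slide with the mutants in one row and the wildtypes in the other, so slide row and genotype cannot be told apart.

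None of the timing genes passed the test between mutant and wildtype progenitors. Of the 14 probes, 13 were bright enough to be tested, and 0 of 13 were called at an adjusted p under 0.05 (limma, adjusted over all 30364 probes tested), against 8 of all probes tested, or 0.0263%. With pool numbers entered as a replicate block, the count was again 0 of 13, against 35 of all probes, or 0.115%. At an unadjusted p under 0.05, 1 of the 13 probes passed in each fit, that of Myc, where 6.45% of all probes passed without the block and 11.2% with it. Over the 9 genes, each by its brightest probe, the median difference was -0.06, with 5 genes below and 4 above zero, beside a median of 0.0017 over all 22662 genes. That median was 0.05 without the mutant 1 array. Intervals of the differences were wide: among the tested probes the 95% intervals reached from -1.19 for Myc to 0.88 for Hmga2, so a difference missing the threshold does not show equal levels.

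**Figure D1:**
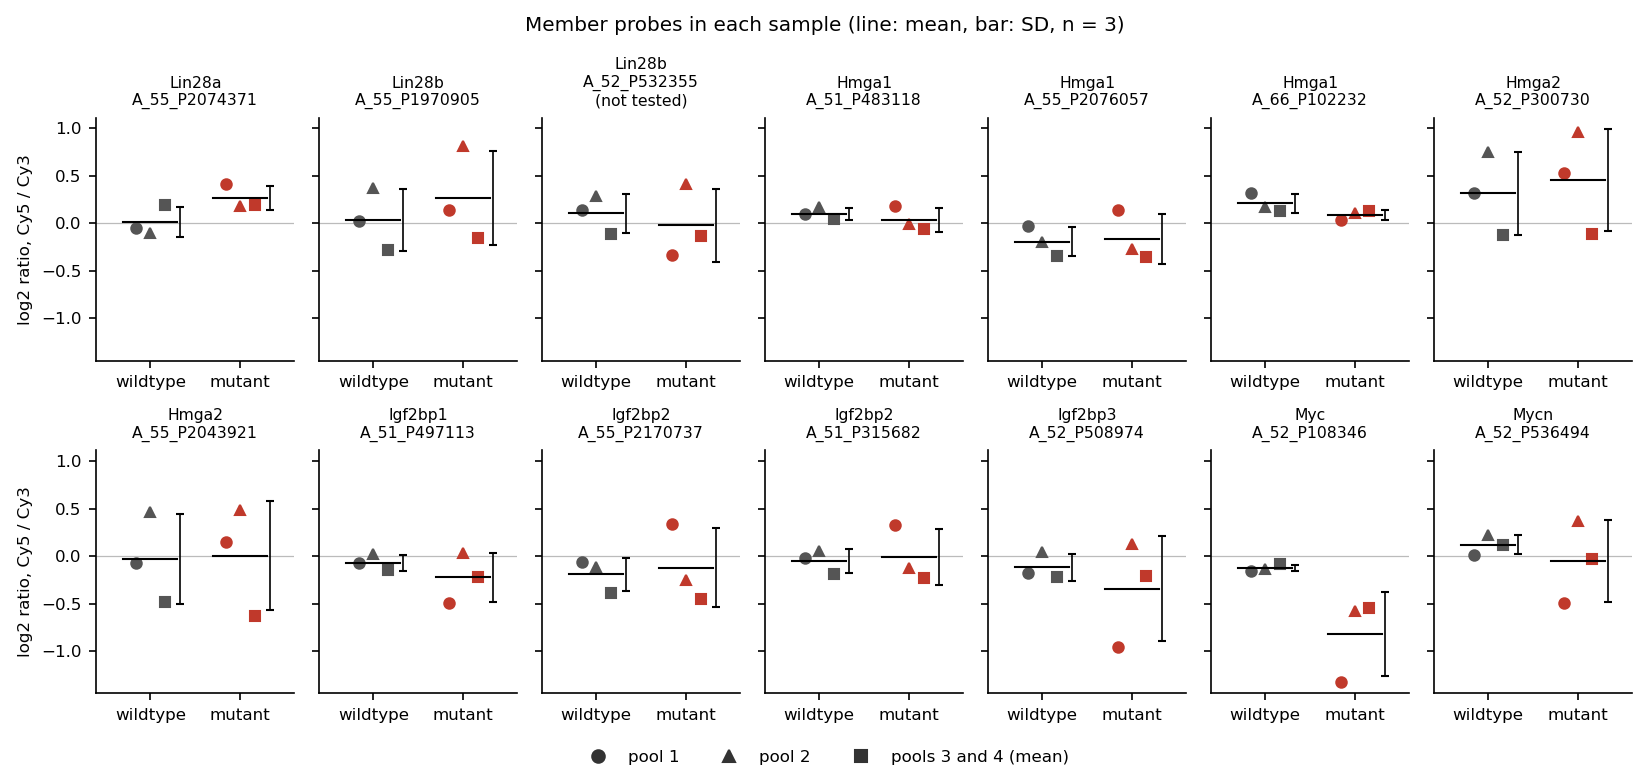
Log2 ratio of Cy5 over Cy3 (y axis, 1 panel per probe) of all 14 probes in the 3 wildtype (grey) and 3 mutant (red) samples, with marker shapes for the pool, a line for the group mean and a bar for the SD. Myc is the panel in which all mutant samples, from -1.33 to -0.54, lie well below all wildtype samples, from -0.16 to -0.09.

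**Figure D2:**
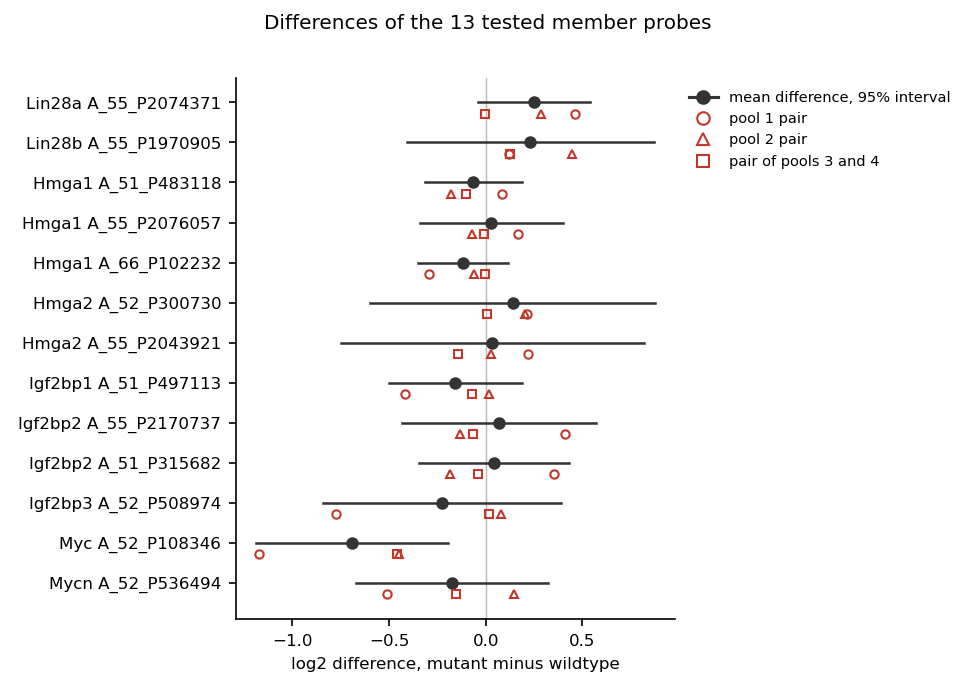
Mutant minus wildtype difference on the log2 scale (x axis) of the 13 tested probes, with the mean and its 95% interval (filled circle and line) and the difference within each same-numbered pair of samples (open symbols). Every interval but that of Myc, -1.19 to -0.19, holds 0, before any adjustment for the number of probes tested.

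Of the let-7 antagonists, Lin28a and the brighter probe of Lin28b read somewhat higher in the mutant samples, within the spread of the samples. The dim Lin28b probe, which was not tested, differed by -0.13. The Lin28a probe (A_55_P2074371) read -0.05, -0.10 and 0.20 in the wildtype samples and 0.41, 0.19 and 0.20 in the mutant samples. Mutant pool 1 stood highest and the joint samples of both groups were equal, so the groups overlapped. The means were 0.02 ± 0.16 and 0.27 ± 0.13 (SD, n = 3), a difference of 0.25 ± 0.12 (SE; 95% interval -0.04 to 0.54; limma adjusted p = 0.839). This probe was dim, with Cy5 spot signals of 176 to 240 against a local background of 66 to 75 on the same linear scale. Its difference was above zero in all 27 alternative analyses run and passed the threshold in 0 of them. It ran from 0.07 with spike-in centring to 0.47 with the deposited value table and 0.62 with Cy5 alone. Several of these analyses leave it unchanged by construction.

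Lin28b, the Lin28 paralog known to prolong nephron formation when kept on in the mouse kidney, differed more between pools than between genotypes. Its brighter probe (A_55_P1970905) read 0.02, 0.37 and -0.28 in the wildtype samples and 0.15, 0.82 and -0.15 in the mutant samples. In both groups pool 2 was highest and the joint sample lowest, and each mutant sample was above the wildtype sample of the same number, by 0.12, 0.44 and 0.13. The group means were 0.04 ± 0.33 and 0.27 ± 0.50 (SD, n = 3), which overlapped, with a difference of 0.23 ± 0.27 (SE; 95% interval -0.41 to 0.87; limma adjusted p = 0.882). Without the mutant 2 array the difference was -0.04, without the wildtype 2 array 0.40 and without the joint mutant sample 0.44. The other Lin28b probe (A_52_P532355) was well above background on only 2 of 4 arrays of each group and was not tested. Its ratios were 0.15, 0.29 and -0.12 in the wildtype samples and -0.34, 0.41 and -0.14 in the mutant samples, again highest in pool 2 of each group.

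Hmga2, a chromatin architectural protein of fetal stem cells and a classic let-7 target, gave the same picture with both of its probes. Probe A_52_P300730 read 0.32, 0.76 and -0.12 in the wildtype samples and 0.53, 0.96 and -0.11 in the mutant samples. Probe A_55_P2043921 read -0.07, 0.46 and -0.49 in the wildtype samples and 0.15, 0.49 and -0.63 in the mutant samples. Pool 2 was highest and the joint sample lowest for both probes in both groups, and the groups overlapped almost fully. Mutant minus wildtype differences were 0.14 ± 0.31 (SE; 95% interval -0.60 to 0.88; limma adjusted p = 0.934) and 0.03 ± 0.33 (95% interval -0.75 to 0.82; adjusted p = 0.986). Their sign was not stable: without the mutant 2 array they were -0.11 and -0.21, without the joint wildtype sample -0.08 and -0.19, without the mutant 1 array 0.11 and -0.04, without the wildtype 2 array 0.36 and 0.28, and without the joint mutant sample 0.43 and 0.35.

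Hmga1, the broadly expressed relative of Hmga2, did not differ between the genotypes beyond the spread of the samples. The brightest of its 3 probes (A_51_P483118), with Cy5 spot signals of 118051 to 153793, read 0.10, 0.17 and 0.04 in the wildtype samples and 0.18, -0.01 and -0.06 in the mutant samples. The groups overlapped, and their difference of -0.06 ± 0.11 (SE; 95% interval -0.31 to 0.19; limma adjusted p = 0.912) had the narrowest interval but one among the tested probes. Probe A_55_P2076057 read -0.03, -0.20 and -0.34 in the wildtype samples and 0.14, -0.27 and -0.35 in the mutant samples, a difference of 0.03 ± 0.16 (adjusted p = 0.976) that was -0.12 without the mutant 1 array and -0.05 without the joint wildtype sample. In both groups that probe was highest in pool 1 and lowest in the joint sample. The third probe (A_66_P102232) was dim, with spot signals of 100 to 211, and read 0.32, 0.17 and 0.14 in the wildtype samples against 0.03, 0.11 and 0.13 in the mutant samples. Its groups did not overlap, although the joint samples nearly touched. Its difference was -0.12 ± 0.10 (adjusted p = 0.873, and p = 0.1 by the exact permutation test of 3 against 3, two-sided, the smallest that test can give). It was -0.49 with Agilent's processed signals and with the deposited value table, -0.18 with offset 16, -0.29 with spike-in centring, 0.20 with Cy5 alone and -0.06 without the wildtype 1 array, none past the threshold.

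Lin28b and Hmga2 varied together over the samples by pool number. Igf2bp1, Igf2bp3 and Mycn were also highest in pool 2 of both groups, by a smaller 0.26, 0.47 and 0.39 over the other samples. Over the 6 samples the ratios of Lin28b (A_55_P1970905) and Hmga2 (A_52_P300730) correlated with r = 0.951, and those of both Hmga2 probes with r = 0.987. These correlations are descriptions, since the points share the Cy3 reference and, as described next, the pool numbers. Pool 2 exceeded the other samples by 0.66 for Lin28b and by 0.71 and 0.73 for the Hmga2 probes, or 1.58-fold, 1.63-fold and 1.66-fold. For Lin28b the excess was 0.50 among the wildtypes and 0.82 among the mutants. For Hmga2 it was 0.66 and 0.75 by one probe and 0.74 and 0.73 by the other. Whether the excess differed between genotypes was not tested. The pool term of the blocked limma fit, a test added after these values were seen, gave unadjusted p = 0.0033, 7.49e-04 and 9.997e-04, and adjusted p = 0.189, 0.127 and 0.135 over all probes. It called 0 of 13 probes of the timing genes, where 0.0856% of all probes were called. At an unadjusted p under 0.05 it took 5 of the 13, the other two being probes of Hmga1 (A_55_P2076057) and Igf2bp2 (A_55_P2170737), where 15.4% of all probes passed.

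Markers of several other cell types were lower in pool 2, where Lin28b and Hmga2 were higher. Pool 2 minus the other samples, as the list median in the wildtypes and the mutants, was -2.08 and -1.35 for proximal tubule, -0.74 and -0.18 for podocytes, -0.29 and -0.23 for early nephron and -0.16 and -0.26 for ureteric bud. It was -0.17 and -0.42 for interstitial stroma, -0.27 and -0.33 for endothelium, -0.26 and -0.62 for macrophages and -0.14 and -0.22 for erythroid cells, against 0.13 and 0.17 for nephron progenitors and -0.06 and -0.01 for all genes. By sample medians, pool 2 was not the lowest mutant sample for podocytes, at -0.85, -0.51 and -0.20. Nor was it for erythroid cells, at -0.04, 0.07 and 0.10. The proximal tubule list varied most. The median ratio of 10 proximal tubule markers was 0.01, -1.31 and 0.78 in the wildtype samples and -1.06, -2.03 and -0.54 in the mutant samples, lowest in pool 2 of each group. Of these 10 markers, 8 were well above background on all 8 arrays, the exceptions being Slc5a2 and Ttr, and none was below background on every array. The summed signal of the 10 markers ran from 11134.5 to 44793 in wildtype samples and from 3101.8 to 16703.5 in mutant samples. The median ratio of the 15 nephron progenitor markers moved far less, at -0.001, 0.15 and -0.05 in the wildtype samples and -0.17, 0.02 and -0.32 in the mutant samples. The part of these markers, or of the wider detection on the wildtype 2 array, in the pool differences of Lin28b and Hmga2 was not tested.

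**Figure D3:**
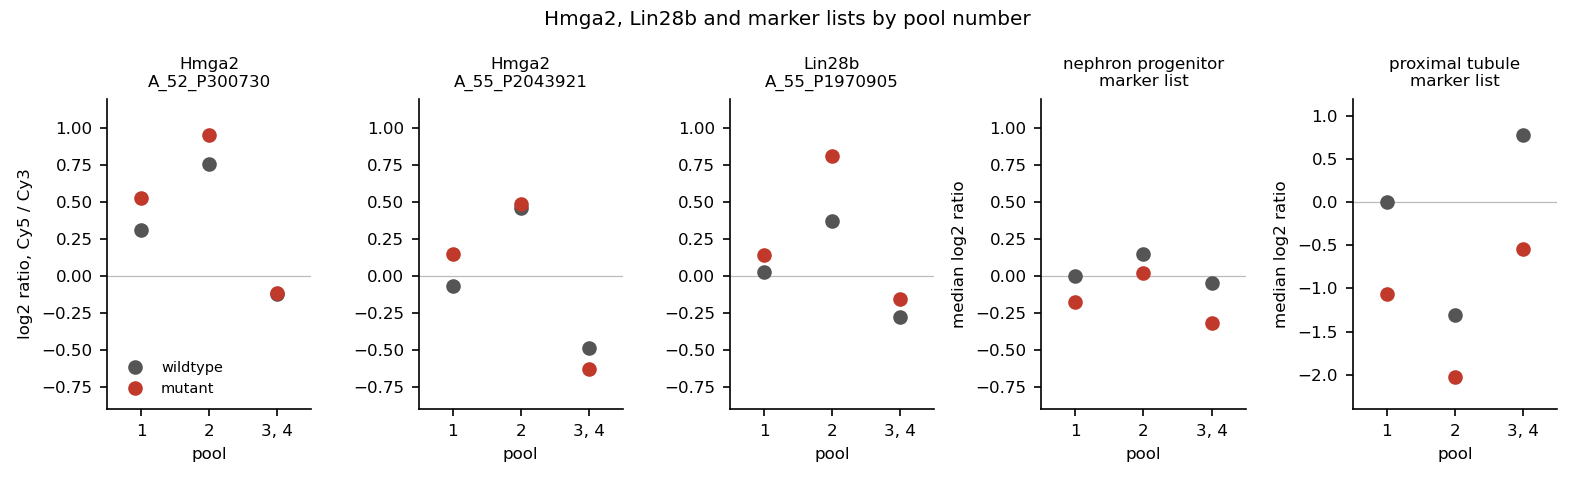
Log2 ratios of both Hmga2 probes and of Lin28b, and the median log2 ratio of the nephron progenitor and proximal tubule marker lists (y axes, the last panel on a wider scale), by pool number (x axis) in wildtype (grey) and mutant (red) samples. Hmga2 and Lin28b are highest in pool 2 of both groups, where the proximal tubule list is lowest, at -1.31 and -2.03.

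Because Lin28b and Hmga2 ran in parallel over pools, their promoters are shown beside that of Igf2bp3, the other timing gene with an E-box. Each sequence is the 250 bases before the annotated start, 5′ to 3′ on the minus strand, from RefSeq (GRCm38.p6): chr10:45470202-45470451 for Lin28b, chr10:120476470-120476719 for Hmga2 and chr6:49214955-49215204 for Igf2bp3. Capitals mark the matches on either strand to 3 motifs: the E-box CACGTG, which Myc and Max are known to bind, the CCAAT box CCAAT and the GC box GGGCGG. No match of one motif overlapped a match of another.
Lin28b: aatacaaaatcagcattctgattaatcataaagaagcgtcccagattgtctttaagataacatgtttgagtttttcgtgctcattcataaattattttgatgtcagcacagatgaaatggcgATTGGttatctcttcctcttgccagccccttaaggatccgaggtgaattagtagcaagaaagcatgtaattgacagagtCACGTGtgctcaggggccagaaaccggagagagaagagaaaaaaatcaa
Hmga2: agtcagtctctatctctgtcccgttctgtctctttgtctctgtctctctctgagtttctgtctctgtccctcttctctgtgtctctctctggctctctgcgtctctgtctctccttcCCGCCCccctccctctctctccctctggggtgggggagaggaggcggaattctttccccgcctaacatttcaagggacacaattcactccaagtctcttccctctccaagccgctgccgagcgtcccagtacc
Igf2bp3: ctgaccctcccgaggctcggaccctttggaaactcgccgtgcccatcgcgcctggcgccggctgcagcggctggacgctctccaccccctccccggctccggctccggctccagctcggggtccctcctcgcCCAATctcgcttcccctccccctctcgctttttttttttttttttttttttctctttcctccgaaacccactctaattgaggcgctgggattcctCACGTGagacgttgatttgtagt

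The Lin28b window held an E-box at -49 to -44 from the start and a CCAAT box on the reverse strand at -128 to -124. The Hmga2 window held neither of these and had 1 GC box, at -133 to -128 on the reverse strand. Igf2bp3 held an E-box at -23 to -18 and a CCAAT box at -118 to -114. Promoter sequence was at hand for 7 of the 9 genes, not for Myc or Igf2bp1, and 2 of those 7 held an E-box, where 6.02% of all 32851 promoter windows of that length did. The CCAAT box was in 2 of 7, where 33.9% of all windows held it, and the GC box in 4 of 7 (Hmga1, Hmga2, Igf2bp2 and Mycn), where 32.7% of all windows held it. Lin28b and Hmga2, whose ratios ran in parallel, shared none of the 3 motifs in these windows. A match is a stretch of letters only, and no binding was measured.

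The Igf2bp genes encode RNA-binding proteins that stabilise growth messages, and none of the 3 passed the test. The Igf2bp1 probe (A_51_P497113) read -0.07, 0.02 and -0.15 in the wildtype samples and -0.49, 0.03 and -0.22 in the mutant samples. The Igf2bp3 probe (A_52_P508974) read -0.18, 0.04 and -0.22 in the wildtype samples and -0.95, 0.12 and -0.21 in the mutant samples. For both genes mutant pool 1 alone was low, and the other mutant samples lay within or next to the wildtype range. Differences were -0.16 ± 0.15 for Igf2bp1 (SE; 95% interval -0.50 to 0.19; limma adjusted p = 0.875) and -0.23 ± 0.26 for Igf2bp3 (95% interval -0.84 to 0.39; adjusted p = 0.881). Without the mutant 1 array they were -0.02 and 0.08, and without the mutant 2 array -0.29 and -0.46.

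Igf2bp2, the family member that stays on in adult tissues, ran the other way in that same pool. Probe A_55_P2170737 read -0.07, -0.12 and -0.39 in the wildtype samples and 0.34, -0.25 and -0.45 in the mutant samples. Probe A_51_P315682 read -0.02, 0.06 and -0.19 in the wildtype samples and 0.33, -0.13 and -0.23 in the mutant samples. Here mutant pool 1 was the highest sample by both probes, while the other mutant samples read below the wildtype samples of the same number. The differences of 0.07 ± 0.21 (SE; 95% interval -0.43 to 0.57; limma adjusted p = 0.956) and 0.04 ± 0.16 (95% interval -0.35 to 0.43; adjusted p = 0.966) became -0.16 and -0.13 without the mutant 1 array. Without the joint wildtype sample both were -0.03.

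Myc, the growth transcription factor, was the timing gene that differed most between the genotypes. Its probe (A_52_P108346) read -0.16, -0.13 and -0.09 in the wildtype samples and -1.33, -0.58 and -0.54 in the mutant samples. All 3 mutant samples lay below all 3 wildtype samples, and mutant pool 1 was lowest by far. The means were -0.13 ± 0.04 and -0.82 ± 0.44 (SD, n = 3), which put the mutants at 61.9% of wildtype, 1.62-fold lower. The difference of -0.69 ± 0.21 (SE; 95% interval -1.19 to -0.19) had an unadjusted p of 0.0131 and an adjusted p of 0.573 in limma, so it did not pass the threshold over all probes. Of the 13 tested probes, 2 had groups that did not overlap, both lower in the mutants (Myc and the dim Hmga1 probe), where 5.5% of all probes tested were of that kind and 13.4% did not overlap in either direction. The exact permutation test gave p = 0.1 for Myc, two-sided, the smallest possible with 3 against 3.

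The lower Myc reading is given here by pair of samples and by spot of the probe. Neither is separate support, since groups that do not overlap give a lower mutant in any pairing. The 2 spots were averaged in the values above. Within pairs of the same number the mutant read lower by 1.17, 0.45 and 0.46 for pool 1, pool 2 and the joint samples. The probe was spotted at 2 places on each array, which read -1.24 and -1.42 on the mutant 1 array, from -0.61 to -0.50 on the other mutant arrays and from -0.19 to 0.01 on the wildtype arrays. Cy5 spot signals ran from 799.5 on the mutant 1 array to 2038.75 on the mutant 3 array among the mutants, and from 2162.5 to 3389.5 among the wildtypes, against backgrounds of 67.5 to 78.5. Without the mutant 1 array the difference was -0.44, or 1.35-fold lower. It was below zero in all 27 alternative analyses, from -0.87 to -0.44, though several of them leave it unchanged by construction. Adjusted p in limma ran from 0.153, with the 8 arrays counted as separate samples, to 0.988.

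Mycn, the Myc paralog also needed for growth of the embryonic kidney, did not differ between the genotypes beyond the spread of the samples. Its probe (A_52_P536494) read 0.02, 0.22 and 0.12 in the wildtype samples and -0.50, 0.37 and -0.03 in the mutant samples. Mutant pool 1 was the lowest sample and mutant pool 2 the highest, so the groups overlapped. The difference was -0.17 ± 0.21 (SE; 95% interval -0.67 to 0.32; limma adjusted p = 0.884), 0.05 without the mutant 1 array and -0.38 without the mutant 2 array. Like Myc, Mycn was lowest in mutant pool 1. Whether the difference of Myc exceeded that of Mycn was not tested.

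Mutant pool 1 stood apart from the other mutant samples for several of the genes. It read below the mean of the other mutant samples by 0.77 for Myc, 0.67 for Mycn, 0.91 for Igf2bp3 and 0.40 for Igf2bp1, and above it by 0.70 and 0.51 for the Igf2bp2 probes and by 0.45 for Hmga1 probe A_55_P2076057. Igf2bp1, Igf2bp3 and Mycn correlated over the 6 samples, with r of 0.971 between Igf2bp1 and Igf2bp3, 0.975 between Igf2bp3 and Mycn and 0.959 between Igf2bp1 and Mycn, as descriptions over points that share the Cy3 reference. Myc correlated with these genes too, with r = 0.781 for Igf2bp1, 0.771 for Igf2bp3 and 0.737 for Mycn. The mutant 1 array also had the least even probes: among 3916 genes with several probes, the median SD between probes of a gene was 0.245 there and from 0.0826 to 0.142 on the other arrays. The part of that unevenness in the low Myc family and Igf2bp readings was not tested.

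Genes around the timing genes were followed through 7 lists, and 0 genes of any list were called, with or without the replicate block, where 0.0353% of all genes by their brightest probe were called without it and 0.141% with it (limma). At an unadjusted p under 0.05, 2 of the other let-7 targets, 2 Myc targets, 1 Myc partner, 1 high mobility group gene, 1 mTORC1 gene and 0 of the other lists passed, where 7.05% of all genes did. The 17 genes of the Lin28 and let-7 processing machinery had a median difference of 0.02, with 7 genes below and 10 above zero. Its brightest genes were the RNA helicase Ddx17 at 0.01 ± 0.11 (SE) and the RNA-binding protein Hnrnpa1 at -0.02 ± 0.10. Of 24 other let-7 targets 23 were tested, with a median of -0.04 and 14 below zero. Both medians turned sign without the mutant 1 array, to -0.04 with 10 of 17 below zero for the machinery and to 0.01 with 10 of 23 below zero for the targets. The targets included the cell cycle enzyme Cdc34 at 0.14 ± 0.15 and cyclin D1 (Ccnd1) at -0.41 ± 0.12 (limma adjusted p = 0.547), which is also a marker of early nephrons. The 13 tested genes of the insulin-like growth factor axis, the pathway the Igf2bp proteins are named for, had a median of 0.06 with 5 below zero, and from 0.02 to 0.11 when 1 sample was left out. Its brightest genes were the binding protein Igfbp5 at 0.003 ± 0.20 and the receptor substrate Irs2 at -0.07 ± 0.10.

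Lists tied to Myc had medians of opposite sign, with no gene called. Of 28 Myc target genes, chiefly ribosome assembly, translation and metabolism genes, 22 were below and 6 above zero, with a median of -0.11. Among them the glycolytic enzyme Ldha differed by -0.18 ± 0.18 (SE) and the nucleolar protein Npm1 by -0.37 ± 0.18 (limma adjusted p = 0.839). Over all 22662 genes, 11226 were below and 11436 above zero. The list median was below that of all genes in all 27 analyses, several of which cannot move it, and ranged from -0.29 to -0.02. It was -0.05 without the mutant 1 array and -0.22 without the mutant 2 array. By sample it was -0.02, 0.09 and -0.08 in the wildtypes and -0.15, 0.04 and -0.11 in the mutants, so the sample medians overlapped. Of 10 tested Myc network partners, which pair with Max or with its relative Mlx, 8 were above zero, with a median of 0.15; Max itself differed by 0.05 ± 0.09 and the repressor Mnt by 0.24 ± 0.12. That median was above the one of all genes in all 27 analyses, several of which cannot move it. By sample it was -0.01, -0.06 and -0.02 in the wildtypes and 0.34, 0.07 and 0.16 in the mutants, highest in mutant pool 1. It was 0.23 without the mutant 2 array and -0.02 when arrays were centred on spike-in controls. That centring lowered the median of all probes to -0.18.

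The medians of the remaining pathway lists, high mobility group and mTORC1, were near zero and turned sign with 1 sample left out. The 9 other high mobility group genes had a median of -0.03, with 5 below zero, and their brightest genes, the nucleosome-binding Hmgn1 and Hmgn2, differed by -0.03 ± 0.09 and -0.29 ± 0.23 (SE). The 15 genes of the mTORC1 growth pathway had a median of -0.04, with 9 below zero, among them the ribosomal protein Rps6 at -0.04 ± 0.15 and the kinase Akt1 at 0.06 ± 0.09. The first of these medians was 0.01 without the joint mutant sample and the second 0.0027 without the mutant 1 array. Among the marker lists the median difference was -0.29 for nephron progenitors (11 of 15 below zero) and -0.40 for early nephron (7 of 10). For podocytes it was -0.61 (6 of 7) and for proximal tubule -1.16, with 10 of 10 genes below zero. That of interstitial stroma was 0.29, with 10 of 10 above zero. It was 0.20 for ureteric bud (6 of 10 above zero) and 0.19 for endothelium (7 of 10). Erythroid cells had 0.05 (8 of 9 above zero) and macrophages 0.01 (6 of 9). The summed podocyte signal ran from 111542 to 120775 in the wildtype samples. In the mutant samples it ran from 104350 to 157096. The nephron progenitor median was -0.11 without the wildtype 2 array. That of proximal tubule was -1.86 without the wildtype 2 array, -0.71 without the mutant 2 array and -0.64 without the joint wildtype sample. That of podocytes was -0.91 and -0.36 without the wildtype 2 array and the joint wildtype sample, that of endothelium 0.11 and 0.29 without the wildtype 2 and the mutant 2 array, and that of macrophages turned to -0.08 without the wildtype 2 array, -0.05 without the mutant 1 array and -0.12 without the joint mutant sample. The part of these cell type markers in the list medians and in the lower Myc reading was not tested.

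**Figure D4:**
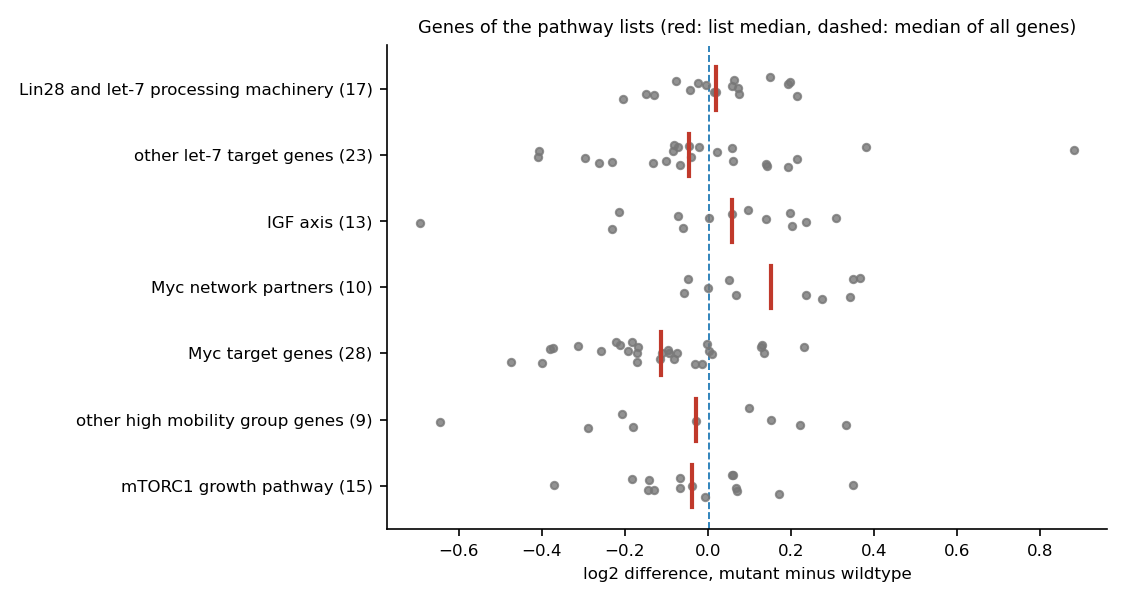
Mutant minus wildtype difference on the log2 scale (x axis) of each tested gene (grey points) in the 7 pathway lists (y axis, number tested in brackets), with list medians in red and the median of all genes dashed. Myc target genes lie mostly left of zero (22 of 28) and Myc network partners mostly right of it (8 of 10), and 0 of the points passed the adjusted threshold.

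The genes whose ratios ran most nearly parallel to those of the most variable timing genes were sought among 13827 named genes above background on all arrays. By Pearson correlation over the 6 samples these were Ccdc51 (0.996) and Ints14 (0.995) for Myc, Zscan12 (0.982) and Itpa (0.977) for Hmga2, Zfp398 and Piezo2 (both 0.996) for Lin28b, and Cenpk (0.998) and Pno1 (0.997) for Igf2bp3. With 6 samples and that many candidates such values are a description of likeness in these arrays.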

How the data were processed

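Deposited scanner files held spot and local background intensity values on a linear scale, per the file headers, together with processed signals and log10 ratios that the authors made with Agilent Feature Extraction 10.7.3.1. The deposited value table held the same log10 ratio values. Median signals were used because the scanner data held no mean signals. They were background-corrected in limma 3.58.1 (R 4.3.3, normexp, offset 50), made into log2 ratios and loess-normalized within arrays. Control and outlier spots had weight 0. Probes detected above background by Feature Extraction's flag for Cy5 on 3 or 4 arrays of a group were fitted by group (lmFit, eBayes) and adjusted by Benjamini-Hochberg over 30364 probes.

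Pools 3 and 4 were joined because their Cy5 levels differed by a median absolute deviation of 0.0567 (wildtype) and 0.0602 (mutant) on the log2 scale, where Cy3 levels of the same RNA differed by 0.0457 to 0.0785 between arrays other than wildtype 2 and other Cy5 pairs by 0.110 to 0.399. The labels call pools biological replicates and do not say whether they share animals, so p-values measure the spread between these samples. Pool numbers were taken to pair samples, on a hint from the data and not from the labels. Deviations from group means correlated with r = 0.513, 0.523 and 0.506 between same-numbered samples and -0.114 to -0.465 between others. Deviations cancel out within a group, so positive values between same-numbered samples make the others negative on average. The negative values therefore add nothing to the hint.

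Symbols came from a RefSeq table (GRCm38.p6), which named 27509 probes with 20887 symbols. Array annotation refers to mm9, so no coordinates of probes are given. All members with every probe, the 2 brightest genes of each list and the 2 most parallel genes of the 4 most variable members were named. Members and lists were chosen with earlier results of these data known. The script was tested on simulated data. Array number limits the precision, and 27 alternatives were run.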

Additional observations from a re-analysis of the deposited data

How the results depend on the processing

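Over the 27 alternatives run, 0 probes of the timing genes were called. The replicate block on pool numbers raised the count over all probes from 8 to 35 (6 higher, 29 lower) and changed no call of a timing gene. With the block and without pair 1, pair 2 or the joint pair it was 5, 16 and 2. It was 254 with 8 arrays as separate samples, which counts pools 3 and 4 as independent. Those pools differed by no more than repeat labellings of the reference did, so that count treats likely repeats as samples. The count was 5 with offset 16, 4 with spike-in centring, 4 with only probes above background on all arrays and 4 with a trended robust variance. With Cy5 alone it was 0 (1049 at an unadjusted p under 0.05, limma). When 1 sample or array was left out it ran from 0 to 10 (0 without wildtype 1, 3 without wildtype 2, 1 without either joint sample).

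The median difference of the 9 genes, -0.06, was 0.049 with median centring, -0.24 with spike-in centring and from -0.11 to 0.049 when 1 sample or array was left out. These scalings moved the median of all probes to 0.07 and -0.18, and Cy5 alone moved it to 0.15. Signs turned in 28 cases, none past the threshold, and their cause was not tested. With spike-in centring they were -0.034 and -0.14 (Hmga2 A_52_P300730 and A_55_P2043921), -0.14 (Hmga1 A_55_P2076057), -0.10 and -0.13 (Igf2bp2 A_55_P2170737 and A_51_P315682). Median centring gave 0.049 for Hmga1 A_51_P483118, and Cy5 alone gave 0.020 for it and 0.20 for Hmga1 A_66_P102232. The 8 separate arrays gave -0.0090 for Hmga2 A_55_P2043921. Leaving out 1 sample gave from -0.21 to 0.35 for Hmga2 A_55_P2043921, from -0.11 to 0.43 for Hmga2 A_52_P300730, -0.12 to 0.12 for Hmga1 A_55_P2076057, -0.16 to 0.24 and -0.13 to 0.15 for Igf2bp2, -0.46 to 0.077 for Igf2bp3, -0.38 to 0.049 for Mycn and -0.043 to 0.44 for Lin28b. With the block and without pair 1, Hmga2 A_55_P2043921 was -0.058, Hmga1 A_55_P2076057 -0.041, Igf2bp2 -0.10 and -0.11 and Igf2bp3 0.047. Quantile scaling of average intensities leaves ratios as they are. The dim Lin28a, Lin28b A_52_P532355 and Hmga1 A_66_P102232 probes lie nearest to background, which limits them most; without the filter the dim Lin28b probe differed by -0.13 (adjusted p = 0.941).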

Other observations

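Among the 7 lists, the gene with the smallest p of each was looked up after the values were seen, so these are descriptions. Igdcc3, an immunoglobulin superfamily gene among the let-7 targets, differed most, by 0.88 ± 0.20 (SE; adjusted p = 0.385 in limma), and Hmgb1, an abundant chromatin protein of another high mobility group family, by -0.64 ± 0.13 (0.332). The Max partner Mxd3 differed by 0.34 ± 0.12 (limma adjusted p = 0.662), the mTORC1 restraint Tsc1 by 0.35 ± 0.14 (0.752), the purine synthesis enzyme Ppat by -0.31 ± 0.10 (0.58), the Igf2 receptor Igf2r by 0.31 ± 0.14 (0.806) and the nuclear exporter of microRNA precursors Xpo5 by -0.20 ± 0.12. Igf2, the message after which the Igf2bp family is named, differed by -0.06 ± 0.16, and Trim71, a let-7 target and heterochronic gene, by 0.19 ± 0.22 (limma adjusted p = 0.879). None of these passed the adjusted threshold.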
